A study of Arabidopsis thaliana with 9 samples.

Results

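The subject of this account is a set of 10 Arabidopsis thaliana genes, the large heat shock chaperones and the regulators of the heat response, followed in seedlings exposed to silver. The genes were chosen by name and matched by locus: HSP101 (AT1G74310), HSP90.1 (AT5G52640), HSP70 (AT3G12580), HSFA2 (AT2G26150), HSFA3 (AT5G03720), HSFA7A (AT3G51910), HSFB1 (AT4G36990, listed by RefSeq as HSF4), HSFB2A (AT5G62020), DREB2A (AT5G05410) and MBF1C (AT3G24500). All 10 were found among the 25665 loci with a probe on the array, each through 1 probe. Every one of the 10 probes was well above background on all 9 arrays, and none was saturated.

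The plants were wild-type seedlings of the ecotype Col-0, 3 weeks old by label, kept at 22 °C in continuous light and moved from agar to shaken liquid medium after 1 week. Silver nitrate was brought to 0.1 mM in the culture, and whole seedlings were collected at the start and after 48 and 72 h, with 3 arrays at each time from separate experiments on different plants. All groups thus share genotype, medium and growth regime, and the 0 h seedlings are the only reference. Silver exposure and the added days of culture cannot be told apart, and in RNA of whole seedlings fewer cells of a type and less RNA per cell cannot be told apart either.

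When proteins unfold, plant cells activate heat shock transcription factors, which switch on genes for chaperones. HSP70 and HSP90 proteins bind and refold client proteins, and HSP101, a ring-shaped ATPase, pulls proteins out of aggregates. In Arabidopsis the HSFA1 factors start the response, HSFA2 and HSFA3 extend it, and factors of class B lack the activation motif of class A and include repressors. DREB2A is a drought and heat transcription factor with HSFA3 among its targets, and MBF1C is a transcriptional coactivator required for thermotolerance. Heavy metals as well as heat are known to induce parts of this set in plants.

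Each array held 39102 spots, of which 37685 were not controls, and 65.4% to 68.3% of spots were well above background. Arrays of the same time correlated at 0.963 to 0.991 over genes. The number of arrays, 3 at each time, limits the precision of every value here. Levels are given as log2 of the signal relative to the 75th percentile of the array, so 0 is the level of the 75th percentile, and they are compared between times but not between genes. Differences are log2 differences with their standard error, tested with limma over 21043 genes with Benjamini-Hochberg adjustment, and a call needs an adjusted p below 0.05. The arrays came on 4 slides. Slide 1 carried the replicates numbered 1 of all times, slide 2 those numbered 2, slide 3 the remaining arrays of 0 h and 48 h, and slide 4 only 72 h replicate 3, so a fit with slide as a block takes nothing from that array for the comparison of 72 h with 0 h.

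At 48 h, 8 of the 10 genes differed from 0 h, against 29.9% of all genes tested. The 3 chaperones, HSFA2, HSFB1 and MBF1C rose (6 of 10, against 14.1% of all genes called higher), and HSFA3 and HSFB2A fell (2 of 10, against 15.8% called lower). At 72 h, 6 of the 10 differed from 0 h, against 36.2% of all genes. HSP90.1, HSP70, HSFB1 and MBF1C were higher (4 of 10, against 16.7%) and HSFA3 and HSFB2A lower (2 of 10, against 19.6%). HSP101 and HSFA2 were called at 48 h only, which is no test of a difference between 48 h and 72 h, and HSFA7A and DREB2A were called at neither time. The median difference of the 10 genes was 1.06 at 48 h and 0.93 at 72 h, where that of all genes was 0.014 and 0.001. The 48 h arrays did not overlap those of 0 h in 8 of the 10 genes (43.1% of all genes), being higher in 6 (21.4%) and lower in 2 (21.8%). The same held at 72 h for the same 8 genes (49.8% of all genes), with 6 higher (24.5%) and 2 lower (25.3%). Without slides 3 and 4, which leaves replicates 1 and 2, 3 of the 10 were called at 48 h (HSP90.1, HSP70 and HSFA3) and 5 at 72 h, MBF1C no longer among them.

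**Figure D1:**
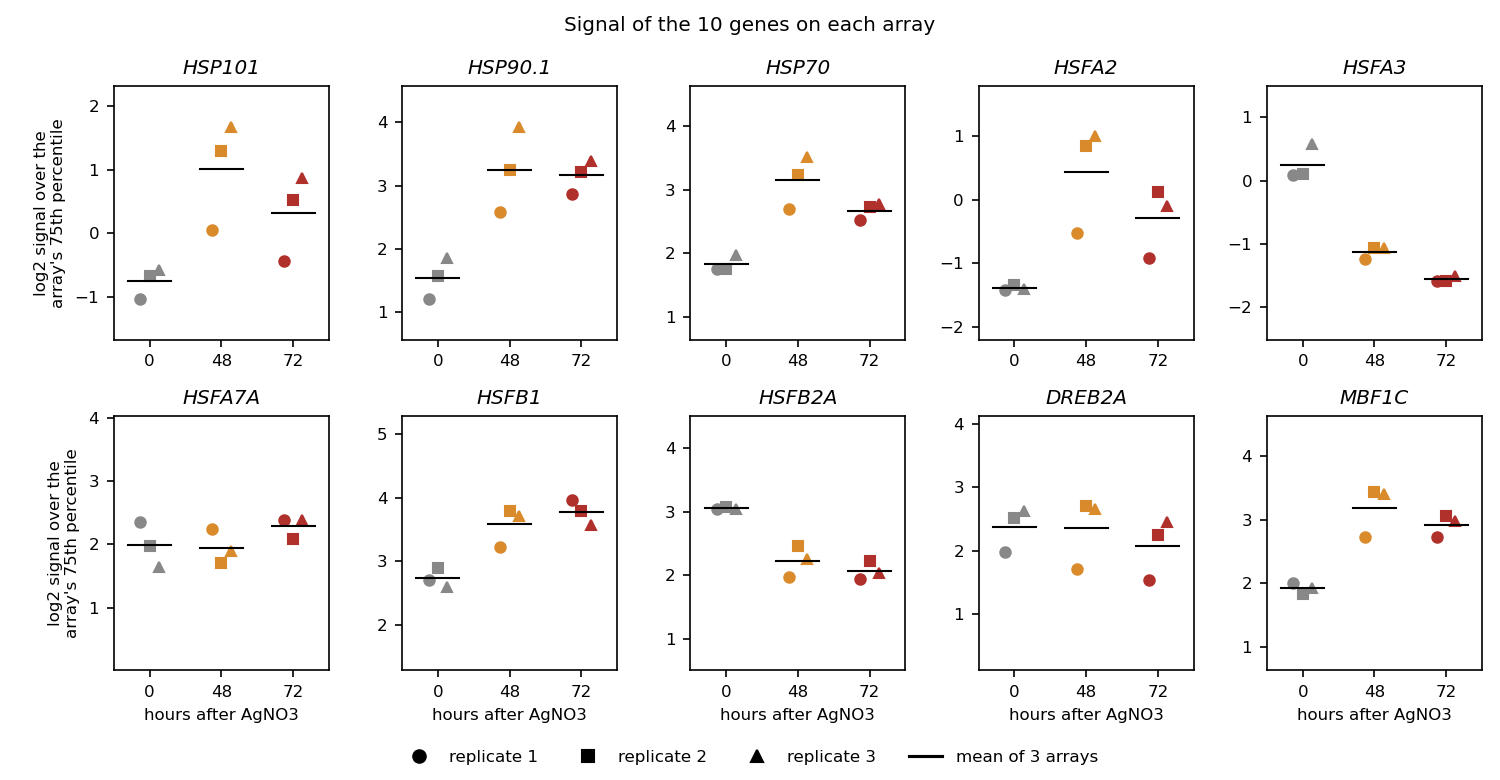
Level of each of the 10 genes on every array, as log2 signal over the array's 75th percentile (y axis, the same span in each panel) at 0, 48 and 72 h (x axis). Symbols mark the replicate and black bars the mean of 3 arrays; the 48 h and 72 h arrays lie above all 0 h arrays for HSP101, HSP90.1, HSP70, HSFA2, HSFB1 and MBF1C and below them for HSFA3 and HSFB2A.

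Among the chaperones, HSP101, the disaggregase without which Arabidopsis does not acquire thermotolerance, stood at -1.03, -0.67 and -0.58 on the 3 arrays at 0 h, at 0.05, 1.30 and 1.67 at 48 h, and at -0.44, 0.53 and 0.87 at 72 h (replicates 1, 2 and 3 in that order, here and below). In processed signal these were 1430, 1738 and 1061 units at 0 h, 3530, 7920 and 6273 at 48 h, and 2332, 4592 and 6723 at 72 h, before scaling between arrays. All 6 later arrays lay above all 3 arrays of 0 h, and replicate 1 was the lowest array at each time. The difference was 1.77 ± 0.45 (SE, n = 3 per time; 3.40-fold; limma adjusted p = 0.0184) at 48 h and 1.08 ± 0.45 (2.11-fold; adjusted p = 0.0961, not called) at 72 h. Set side by side by replicate number, which pairs the arrays of 0 h and 48 h but was not shown to pair those of 72 h, it was 1.09, 1.97 and 2.25 at 48 h and 0.59, 1.20 and 1.45 at 72 h, and a slide block brought the limma adjusted p to 0.00614 for 48 h and 0.0492 for 72 h. The 48 h call ended without 48 h replicate 2 (adjusted p = 0.0631), without 48 h replicate 3 (0.0649) and without slides 3 and 4 (0.121). The 72 h difference passed the threshold without 48 h replicate 1 (0.0392) or 72 h replicate 1 (0.0390), and in the deposited value table (0.0476).

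HSP90.1, the heat-inducible cytosolic HSP90, stood at 1.22, 1.57 and 1.86 at 0 h, at 2.59, 3.24 and 3.92 at 48 h, and at 2.86, 3.22 and 3.39 at 72 h. The lowest later array exceeded the highest 0 h array. The difference was 1.70 ± 0.33 (SE, n = 3 per time; 3.24-fold; limma adjusted p = 0.00508) at 48 h and 1.61 ± 0.33 (3.05-fold; adjusted p = 0.00526) at 72 h. Set side by side by number, the differences were 1.37, 1.66 and 2.06 at 48 h and 1.64, 1.65 and 1.53 at 72 h. The numbers were not shown to pair the arrays of 72 h, and the levels ranged over 0.64 log2 units at 0 h and 0.52 at 72 h. HSP90.1 kept its call at both times under every alternative run, with limma adjusted p up to 0.0295 at 48 h and 0.0233 at 72 h.

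HSP70 (AT3G12580), a heat-inducible cytosolic member of its family, stood at 1.75, 1.75 and 1.97 at 0 h, at 2.70, 3.23 and 3.52 at 48 h, and at 2.52, 2.72 and 2.78 at 72 h. Again no later array reached down to the 0 h range. The difference was 1.33 ± 0.21 (SE, n = 3 per time; 2.51-fold; limma adjusted p = 0.00184) at 48 h and 0.85 ± 0.21 (1.80-fold; adjusted p = 0.0125) at 72 h, and it too kept both calls under every alternative. The 72 h minus 48 h difference for the 3 replicate numbers was -0.19, -0.51 and -0.75, with an unadjusted limma p of 0.0455 and an adjusted p of 0.526.

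Among the class A factors, HSFA2, which sustains acquired thermotolerance and is itself a target of HSFA1, stood at -1.42, -1.34 and -1.40 at 0 h, a range of under 0.1 log2 units. It stood at -0.52, 0.85 and 1.01 at 48 h and at -0.91, 0.13 and -0.09 at 72 h. The difference was 1.83 ± 0.41 (SE, n = 3 per time; 3.55-fold; limma adjusted p = 0.0104) at 48 h, the largest log2 difference among the 10 genes at that time, and 1.10 ± 0.41 (2.14-fold; adjusted p = 0.0673, not called) at 72 h. Replicate 1 was the lowest array at all 3 times. Set side by side by number, the differences were 0.90, 2.19 and 2.40 at 48 h and 0.51, 1.47 and 1.31 at 72 h. For 72 h the numbers were not shown to pair the arrays. Without slides 3 and 4 the 48 h call ended (limma adjusted p = 0.134). The 72 h difference passed without 48 h replicate 1 (0.0139) or 72 h replicate 1 (0.0370). It also passed with only the 0 h and 72 h arrays fitted (0.0249) and in the deposited value table (0.0355). With slide as a block its limma adjusted p was 0.0756.

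HSFA3, the heat shock factor downstream of DREB2A, moved the other way. It stood at 0.08, 0.11 and 0.57 at 0 h, at -1.24, -1.06 and -1.06 at 48 h, and at -1.59, -1.58 and -1.51 at 72 h. All later arrays were below all 0 h arrays, and the 72 h arrays were below the 48 h arrays. The difference was -1.37 ± 0.15 (SE, n = 3 per time; 2.58-fold lower; limma adjusted p = 0.000401) at 48 h and -1.81 ± 0.15 (3.51-fold lower; adjusted p = 9.03e-05) at 72 h. These were the smallest adjusted p among the 10 genes at both times, and the highest over all alternatives were 0.00963 at 48 h and 0.00428 at 72 h. HSFA3 lay at the percentile 6.17 of all genes by difference at 48 h and 5.08 at 72 h, so a fall of this size was not rare. The 6 genes that rose at 48 h lay at percentiles 88.5 to 96.3 at that time and 87.7 to 94.7 at 72 h, so rises of their size were not rare either.

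HSFA7A, a heat-inducible class A factor, stood at 2.35, 1.98 and 1.65 at 0 h, at 2.24, 1.71 and 1.89 at 48 h, and at 2.39, 2.09 and 2.38 at 72 h, and the arrays of the 3 times overlapped. The difference was -0.04 ± 0.21 (SE, n = 3 per time; 95% interval -0.53 to 0.44; limma adjusted p = 0.905) at 48 h and 0.29 ± 0.21 (-0.19 to 0.77; adjusted p = 0.318) at 72 h. The intervals include 0 but also rises of more than 0.4 log2 units, and that of 48 h also reaches down to -0.53.

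The class B factors differed in direction. HSFB1, which together with HSFB2B represses heat genes in Arabidopsis, stood at 2.71, 2.90 and 2.60 at 0 h, at 3.22, 3.79 and 3.72 at 48 h, and at 3.97, 3.79 and 3.57 at 72 h. The later arrays were all above the 0 h arrays, and at 72 h replicate 1 was the highest of the 3, unlike in HSP101, HSP90.1, HSP70, HSFA2 and MBF1C. The difference was 0.84 ± 0.18 (SE, n = 3 per time; 1.79-fold; limma adjusted p = 0.00944) at 48 h and 1.04 ± 0.18 (2.06-fold; adjusted p = 0.00277) at 72 h. The 48 h call ended without slides 3 and 4 (limma adjusted p = 0.110).

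HSFB2A, another class B factor, stood at 3.05, 3.07 and 3.05 at 0 h, at 1.97, 2.46 and 2.25 at 48 h, and at 1.94, 2.23 and 2.03 at 72 h. Every later array was below the 0 h arrays, which lay within about 0.02 log2 units of each other. The difference was -0.83 ± 0.15 (SE, n = 3 per time; 1.78-fold lower; limma adjusted p = 0.00391) at 48 h and -0.99 ± 0.15 (1.98-fold lower; adjusted p = 0.00127) at 72 h. Without slides 3 and 4 the limma adjusted p at 48 h was 0.0644.

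DREB2A stood at 1.98, 2.52 and 2.62 at 0 h, at 1.72, 2.70 and 2.66 at 48 h, and at 1.54, 2.25 and 2.45 at 72 h. Replicate 1 was the lowest array at each time, by more than the times differed from each other. The difference was -0.01 ± 0.33 (SE, n = 3 per time; 95% interval -0.78 to 0.75; limma adjusted p = 0.982) at 48 h and -0.29 ± 0.33 (-1.06 to 0.47; adjusted p = 0.533) at 72 h. The interval at 48 h leaves room for a change of about 0.75 in either direction. The DREB2A protein is known to be held down by the ubiquitin ligases DRIP1 and DRIP2, which these RNA values do not measure; DRIP1 differed by 0.13 ± 0.15 at 48 h and 0.38 ± 0.15 at 72 h and DRIP2 by 0.03 ± 0.12 and 0.14 ± 0.12, none of them called.

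MBF1C stood at 2.0, 1.83 and 1.92 at 0 h, at 2.73, 3.43 and 3.40 at 48 h, and at 2.73, 3.06 and 2.98 at 72 h, with no overlap between the 0 h arrays and the later ones. The difference was 1.27 ± 0.20 (SE, n = 3 per time; 2.41-fold; limma adjusted p = 0.00198) at 48 h and 1.01 ± 0.20 (2.01-fold; adjusted p = 0.00479) at 72 h. Set side by side by number, the differences were 0.73, 1.60 and 1.49 at 48 h and 0.73, 1.23 and 1.06 at 72 h. For 72 h the numbers were not shown to pair the arrays. Both calls ended without slides 3 and 4 (limma adjusted p = 0.0522 for 48 h and 0.0647 for 72 h).

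**Figure D2:**
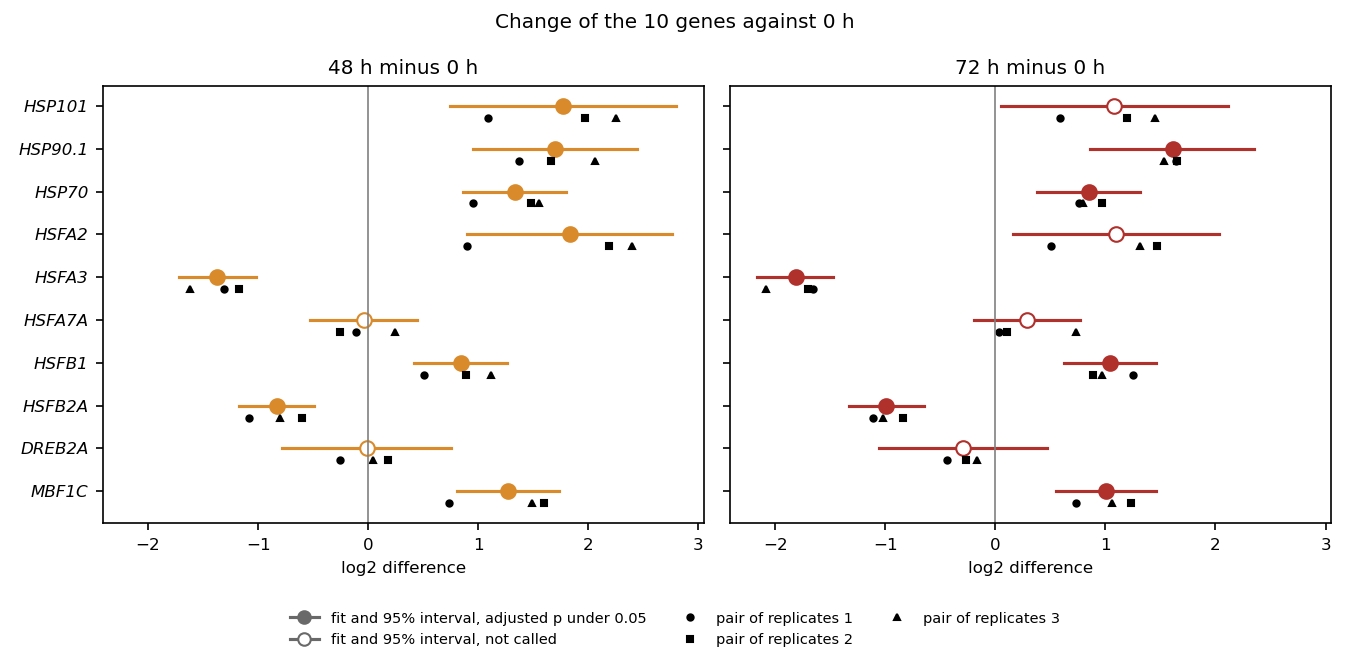
Fitted log2 difference from 0 h with its 95% interval (coloured; filled symbols at an adjusted p under 0.05) for 48 h on the left and 72 h on the right, with the differences of the 3 same-numbered pairs as small black symbols below each. For HSP101 and HSFA2 the pair of replicates 1 (1.09 and 0.90 at 48 h) lies below the other two pairs, while the 3 pairs of HSFA3 stay between -1.17 and -1.62 at 48 h. The numbers were not shown to pair the arrays of 72 h.

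Of the 6 genes that rose at 48 h, replicate 1 gave the lowest of the 3 levels at 48 h in all 6, against 30.0% of the 21020 genes with values on all arrays. At 72 h it was the lowest in 5 of these 6, against 37.4% of all genes, and at 0 h in 3 of the 6, against 38.0%. The array of 48 h replicate 1 thus stood lower than its fellows for these genes but not for genes at large. Leaving it out gave differences of 2.25 for HSP101 and 2.31 for HSFA2 at 48 h, and the count of called genes at 48 h stayed at 8.

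The replicate numbers did not pair the arrays of 48 h and 72 h (same-numbered deviations correlated at 0.10, 0.11 and -0.04, with the replicates 3 on different slides), so values set side by side by number are a description only. In 7 of the 10 genes the 72 h value was below the 48 h value for all 3 numbers (in MBF1C by a difference that rounds to 0.00 for number 1), against 18.8% of all genes, and in HSFA7A it was above for all 3, against 15.9%. By the test between the times none of the 10 was called, nor was any of the 21043 genes (0% called by limma); 2 of the 10, HSP70 and HSFA3, had an unadjusted p under 0.05, as did 1941 genes in all. The median difference of the 10 genes between 72 h and 48 h was -0.27, that of all genes -0.014. The differences were -0.69 for HSP101 (95% interval -1.72 to 0.34; limma adjusted p = 0.759) and -0.73 for HSFA2 (-1.67 to 0.20; 0.687). HSP90.1 had -0.09 (-0.83 to 0.65; 0.968), a value that turned positive in some alternatives. HSFA3 was the only 1 of the 10 whose 72 h and 48 h arrays did not overlap (-0.44, interval -0.79 to -0.10, adjusted p = 0.395), where 17.5% of all genes did not overlap (9.75% lower and 7.78% higher at 72 h).

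The relatives of these genes were followed through lists of the HSF, HSP90, HSP70, HSP100, DREB2 and MBF1 families, of co-chaperones and of heat tolerance genes. Of 58 such genes 54 were tested, and at 48 h 14 were called higher and 5 lower (35.2% called, against 29.9% of all genes). At 72 h 13 were higher and 4 lower (31.5%, against 36.2%). The median difference over the 54 was 0.15 at 48 h and 0.10 at 72 h, against 1.06 and 0.93 over the 10 genes described above. Of the 19 calls at 48 h, 8 were kept whichever single array was left out, and of the 17 at 72 h, 9. The count at 48 h was 9 without 0 h replicate 2, 11 without 48 h replicate 2 or without 48 h replicate 3, and 12 without 0 h replicate 3. At 72 h it was 11 without 0 h replicate 2, 10 without 72 h replicate 2 and 9 without 72 h replicate 3.

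**Figure D3:**
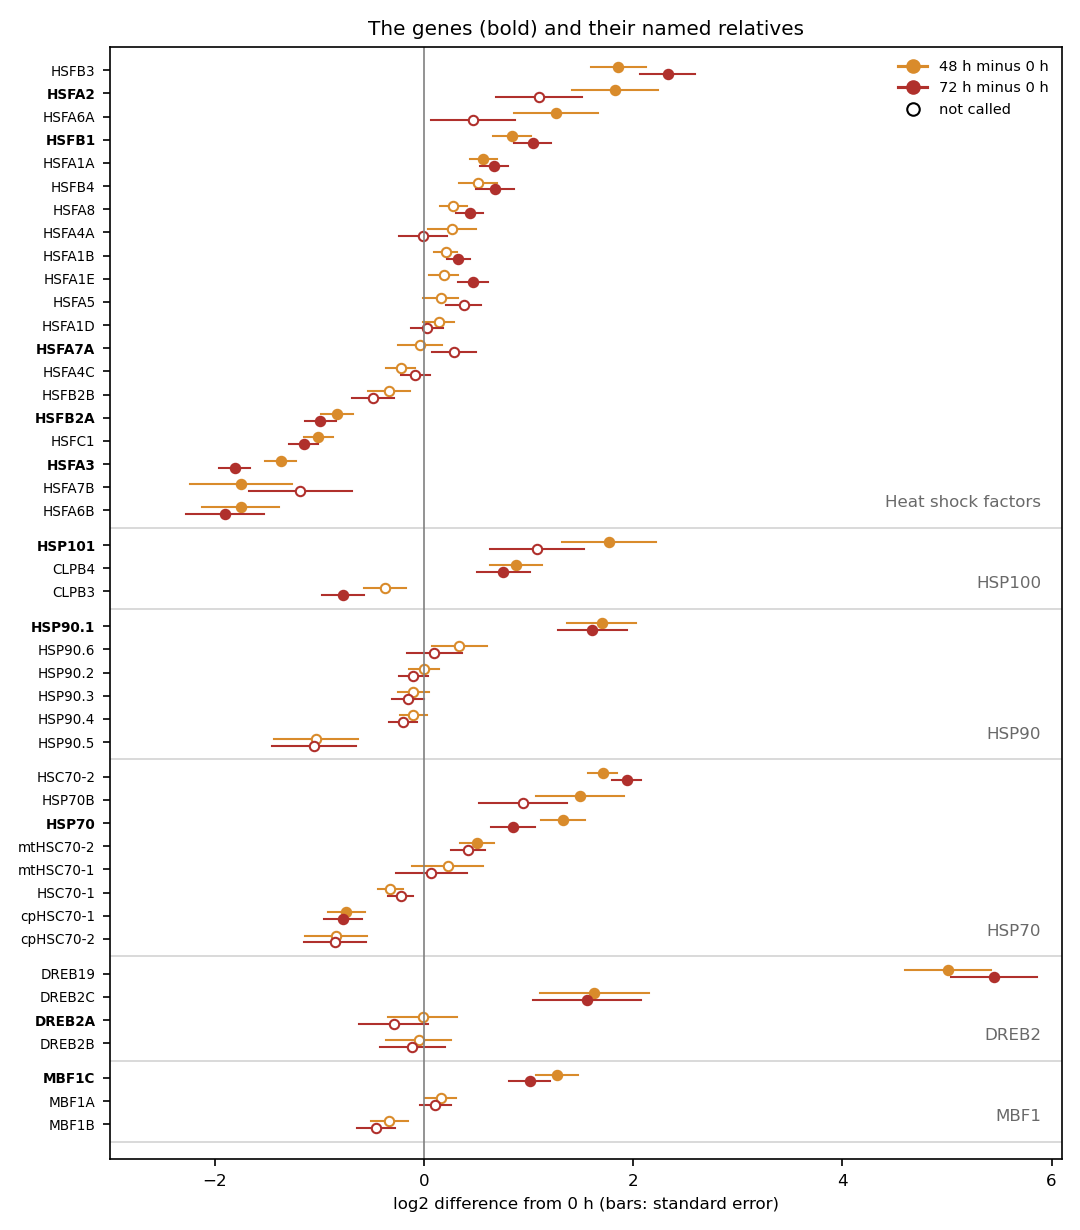
Log2 difference from 0 h at 48 h (orange) and 72 h (red) with its standard error. The described genes (bold) stand with relatives of their families, sorted within a family by the 48 h value. Open symbols were not called. HSC70-3 (0.68 at 72 h, called), DREB2D (-1.59 at 48 h, called), DREB2F, the DREB2A regulators and untested genes are not drawn. At 48 h HSP90.1 lies at 1.70 and HSP90.2, HSP90.3 and HSP90.4 between -0.10 and 0.00, and DREB19 lies at 5.01 and DREB2A at -0.01.

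Within the HSP90 family none of the 5 other genes was called by limma at either time (1 of 5 with an unadjusted p under 0.05 at each). HSP90.2, HSP90.3 and HSP90.4, the cytosolic forms closest to HSP90.1, differed by 0.00 ± 0.14, -0.10 ± 0.15 and -0.10 ± 0.13 at 48 h and by -0.10 ± 0.14, -0.15 ± 0.15 and -0.20 ± 0.13 at 72 h. HSP90.5 had -1.03 ± 0.40 at 48 h (limma adjusted p = 0.0853) and -1.05 ± 0.40 at 72 h (0.0695). HSP90.6 had 0.34 ± 0.26 and 0.10 ± 0.26. Without 0 h replicate 1, 1 of the 5 was called lower at both times. Probe sequences were not examined, so signal shared between near-identical relatives was not assessed for this family or for HSP70.

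In the HSP70 family HSC70-2, a cytosolic member encoded beside the major form HSC70-1, rose by 1.71 ± 0.14 at 48 h (SE, n = 3 per time; limma adjusted p = 0.000120) and by 1.94 ± 0.14 at 72 h (5.23e-05), with levels of 1.51, 1.66 and 1.69 at 0 h, 3.27, 3.25 and 3.48 at 48 h, and 3.75, 3.34 and 3.60 at 72 h. Its rise exceeded that of HSP70 in size at both times, a difference that was not tested. HSC70-1 had -0.32 ± 0.12 and -0.22 ± 0.12, not called. HSP70B (1.49 ± 0.42, limma adjusted p = 0.027) and mtHSC70-2 (0.51 ± 0.16, 0.0395) were called higher at 48 h only, and HSC70-3 (0.68 ± 0.17, 0.013) at 72 h only. The gene called lower at both times was cpHSC70-1 (-0.74 ± 0.18, 0.0148, and -0.77 ± 0.18, 0.0105). Single arrays left out ended the 48 h calls of HSP70B (4 arrays), mtHSC70-2 (6) and cpHSC70-1 (2). Of the 8 family members tested, 3 were called higher (14.1% of all genes) and 1 lower (15.8%) at 48 h, and 2 higher (16.7%) and 1 lower (19.6%) at 72 h. Only 1 was higher at 48 h without 48 h replicate 2, without 0 h replicate 3 or without slides 3 and 4, and 2 were higher without each of the other arrays apart from 72 h replicate 1. At 48 h none was lower without 0 h replicate 2, 48 h replicate 3 or slides 3 and 4, and 2 were lower at both times without 0 h replicate 1. At 72 h 1 was higher and none lower with slide as a block and without slides 3 and 4, and 3 were higher without 48 h replicate 1.

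The organelle relatives of HSP101 are CLPB3 of the chloroplast and CLPB4 of mitochondria. CLPB3 differed by -0.37 ± 0.20 at 48 h, not called, and by -0.77 ± 0.20 at 72 h (SE, n = 3 per time; limma adjusted p = 0.0170). That call was lost without 0 h replicate 3 or 72 h replicate 3 (0.0527 to 0.0551), with slide as a block (0.0570), in the deposited value table (0.0792) and without slides 3 and 4 (0.146). CLPB4 rose by 0.88 ± 0.25 at 48 h (adjusted p = 0.0307) and by 0.76 ± 0.25 at 72 h (0.0461). The calls of CLPB4 ended with the replicate number as a block (adjusted p = 0.0504 at 48 h, 0.0697 at 72 h), at 72 h with slide as a block (0.242), and without replicate 2 or 3 of 0 h or of the later time (0.0582 to 0.0984 at 48 h, 0.0605 to 0.157 at 72 h, there also without 48 h replicate 2 or 3). Both also ended without slides 3 and 4 (limma adjusted p = 0.148 at 48 h, 0.333 at 72 h). In all, the 72 h call of CLPB4 was lost in 12 of 21 alternatives and the 48 h call in 6.

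Of the 15 other heat shock factors tested, 3 were called higher (14.1% of all genes) and 3 lower (15.8%) at 48 h, and 6 higher (16.7%) and 2 lower (19.6%) at 72 h. With single arrays left out, 2 to 3 were higher and 2 to 3 lower at 48 h; HSFA6A, one of those higher, was called with all arrays and without 48 h replicate 2 but not without any other array. At 72 h 2 were higher without 72 h replicate 2 or 72 h replicate 3, 3 without 0 h replicate 2 or 0 h replicate 3, and 4 without 72 h replicate 1, and 4 were lower without 48 h replicate 1. With normexp 1 was higher at 48 h. Without slides 3 and 4, 1 was higher and 1 lower at 48 h and 2 and 2 at 72 h, and with slide as a block 2 and 2 at 72 h. HSFB3, a class B factor, rose by 1.86 ± 0.26 at 48 h (SE, n = 3 per time; limma adjusted p = 0.00110) and by 2.33 ± 0.26 at 72 h (0.000287), and by 1.02 and 1.44 with another background correction (normexp). HSFC1, the sole class C factor, fell by 1.01 at 48 h (SE 0.14, adjusted p = 0.00104) and by 1.15 at 72 h (0.000412). HSFA6B, linked to abscisic acid responses, fell by 1.75 at 48 h (SE 0.37, adjusted p = 0.00786, and 0.0585 without slides 3 and 4) and by 1.90 at 72 h (0.00430). HSFA1A, a factor that starts the heat response, rose by 0.57 ± 0.13 at 48 h (adjusted p = 0.0131; 0.0549 without slides 3 and 4, 0.100 with normexp) and by 0.67 ± 0.13 at 72 h (0.00491; 0.42 and 0.0470 with normexp). HSFA1B, HSFA1D and HSFA1E lay between 0.14 and 0.21 at 48 h, none called. At 72 h HSFA1B (0.33 ± 0.11, limma adjusted p = 0.0463) and HSFA1E (0.47 ± 0.14, 0.028) were called higher, and HSFA1D (0.03 ± 0.15) was not. The 72 h call of HSFA1B was lost in 18 of 21 alternatives and that of HSFA1E in 9.

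Among the co-chaperones and heat tolerance genes 5 of 14 were called higher at 48 h (14.1% of all genes) and 2 at 72 h (16.7%), none lower (limma). At 48 h 2 were higher without 0 h replicate 2, 48 h replicate 2 or 48 h replicate 3, 3 without 0 h replicate 1, and 1 without slides 3 and 4. At 72 h 1 was higher without 0 h replicate 2, 72 h replicate 2 or 72 h replicate 3, and 4 with slide as a block or in the deposited value table. GolS1, a galactinol synthase and known HSFA2 target, rose by 1.52 ± 0.26 at 48 h (SE, n = 3 per time; limma adjusted p = 0.00297, and 0.0571 without slides 3 and 4) and by 1.86 ± 0.26 at 72 h (0.000869). HOP3, which bridges HSP70 and HSP90, rose by 1.26 ± 0.25 at 48 h (0.00608) and by 0.94 ± 0.25 at 72 h (0.0187, but no longer called without 0 h replicate 2, 72 h replicate 2 or 72 h replicate 3, at 0.0618 to 0.0635). Its relatives HOP1 and HOP2 had -0.18 ± 0.17 and 0.09 ± 0.23 at 48 h and were not called.

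Of the 8 DREB2 group genes and DREB2A regulators tested, 2 were called higher (14.1% of all genes) and 1 lower (15.8%) at 48 h, and 2 higher (16.7%) and none lower at 72 h (limma). In each case 1 of the 2 was DREB19 and the other DREB2C, whose call ended without 7 of the 9 single arrays at 48 h (adjusted p = 0.0509 to 0.129, all but 72 h replicates 1 and 3) and without 8 at 72 h (0.0507 to 0.119, all but 72 h replicate 1). The 1 called lower at 48 h was DREB2D (-1.59 ± 0.41, limma adjusted p = 0.0203), which at 72 h had -0.95 ± 0.41, not called. None was lower at 48 h without 48 h replicate 1, 0 h replicate 2, 0 h replicate 3 or slides 3 and 4. At 72 h 1 was lower without 0 h replicate 1, and 4 were higher in the deposited value table. DREB19 (AT2G38340), a relative of DREB2A, stood at -5.98, -5.10 and -4.51 at 0 h, at -0.61, -0.32 and 0.36 at 48 h, and at -0.20, 0.21 and 0.74 at 72 h. It rose by 5.01 ± 0.41 at 48 h (SE, n = 3 per time; limma adjusted p = 0.000120) and by 5.45 ± 0.41 at 72 h (5.89e-05), where DREB2A had -0.01 and -0.29. Over the 21 alternatives the lowest rise of DREB19 was 3.79 at 48 h and 4.24 at 72 h, and both calls were kept in all of them. DREB2B, the closest relative of DREB2A, had -0.05 ± 0.31 and -0.11 ± 0.31, not called.

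Both other MBF1 genes missed the threshold: MBF1A had 0.16 ± 0.15 at 48 h and 0.11 ± 0.15 at 72 h, and MBF1B -0.33 ± 0.18 and -0.46 ± 0.18. Without 0 h replicate 1, 1 of them was called lower at 72 h. Whether each of the 10 genes differed from its relatives was not tested.

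The small heat shock proteins, low-mass chaperones that hold unfolding proteins in solution, crossed the same pattern. Of 13, 11 were called higher at 48 h (14.1% of all genes) with a median difference of 2.74, and 7 at 72 h (16.7%) with a median of 1.85. Replicate 1 gave the lowest level in 13 of 13 at 48 h (30% of all genes) and at 72 h (37.4%). At 0 h it did so in 10 of 13 (38% of all genes). With single arrays left out 8 to 13 were called higher at 48 h, and at 72 h 4 to 9, with 4 without 72 h replicate 3. Without slides 3 and 4 the counts were 4 at 48 h and 3 at 72 h, and with normexp 8 and 4.

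By Pearson correlation over the 9 arrays, HSFA2 had rank 3 among 21019 genes in likeness to HSP101 (r = 0.979). HSP70 (0.949), MBF1C (0.919) and HSP90.1 (0.916) followed, then HSFB1 (0.685) and DREB2A (0.483), while HSFA7A (-0.281), HSFB2A (-0.538) and HSFA3 (-0.596) were negative. The 5 genes with a symbol most like HSP101, outside the 10, were BAG6, a co-chaperone (0.981), NAT7 (0.973), HSP17.6A (0.966), HSP21 (0.966) and Fes1A (0.964), and those most like HSFA2 were BAG6 (0.981), Hsp70b (0.972), HXK1 (0.969), APS3 (0.961) and HSP17.6A (0.957). These are descriptions over 9 arrays that share times, slides and scaling, so both the differences between times and the low replicate 1 enter them.

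**Figure D4:**
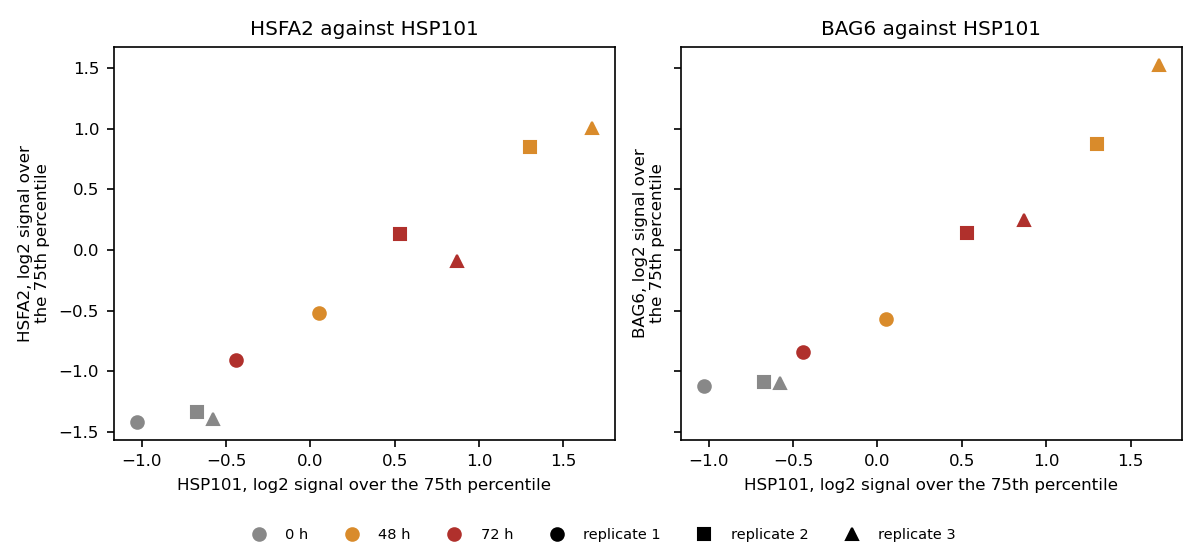
Level of HSFA2 (left) and BAG6 (right) against that of HSP101 on the 9 arrays, all as log2 signal over the array's 75th percentile; colours give the time and symbols the replicate. The points lie near a line (r = 0.979 and 0.981), with 48 h replicate 1, at 0.05 for HSP101, between the 0 h arrays and the other 48 h arrays.

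Genes listed as leaf and root markers moved over the same times. The signal of 3 leaf markers (RBCS1A, RCA and LHCA3) was summed in multiples of the array's 75th percentile. The sum was 318 to 354 at 0 h, 148 to 177 at 48 h and 143 to 168 at 72 h. Of these markers 2 of 3 were called lower at 48 h (15.8% of all genes) and 3 of 3 at 72 h (19.6%). The 72 h call of RBCS1A was lost in 8 alternatives. Among them were quantile normalization (-0.03, limma adjusted p = 0.880), the deposited value table (0.154) and the slide block (0.0761). It was also lost with replicates 2 and 3 of 0 h or 72 h left out singly (0.0568 to 0.0730). The sum over 3 root markers (COBL9, PRP3 and TIP2;3) was 1.72 to 3.61 at 0 h, 0.147 to 0.168 at 48 h and 0.0391 to 0.0775 at 72 h. Of these, 3 of 3 were called lower at 48 h (15.8% of all genes) and at 72 h (19.6%). Whether these 3 genes stand for the whole root or only for some of its cells was not tested. The calls of PRP3 ended without slides 3 and 4 (limma adjusted p = 0.196 for 48 h and 0.0593 for 72 h), and at 48 h without 0 h replicate 1, 0 h replicate 3 or 48 h replicate 3 (0.0503 to 0.0676). At 72 h PRP3 was well above background on 0 of 3 arrays, while COBL9 and TIP2;3 were on all 3. The part of these shifts in the results on the heat genes was not tested.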

How the data were processed

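Whole-seedling RNA from 0, 48 and 72 h of 0.1 mM silver nitrate was labelled with Cy3 and hybridised to 1-colour Agilent arrays, 3 at each time, grouped and numbered by the labels. The authors deposited scanner files from Agilent Feature Extraction 9.5.3.1 (per the submitters' processing notes), with a processed signal for every spot, an intensity that per the file headers had its background subtracted and was not scaled between arrays. The authors also deposited a value table that holds a linear ratio. Its scaling and reference level per probe are not given in the sources used here; over 22644 probes its log2 differences between arrays matched those of the processed signal within 0.05, up to a constant for each array. For 37.3% of probes an array stands at exactly 1, and array medians were 0.901 to 1.11. It served as an alternative only.

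Control spots and outlier flags were left out, and no spot was saturated. The log2 processed signal was set against the 75th percentile of its array. Probes that all 3 arrays of some time showed well above background were kept, and the probe of highest mean stood for its locus (26236 of 37478 probes had a locus). Symbols came from RefSeq, which held 25449 of the 25665 loci. No genome build is named, so no positions are given. limma 3.58.1 in R 4.3.3 fitted 1 mean per time to all 9 arrays (6 residual and 2.54 prior degrees of freedom, median SE 0.194 at 48 h), with two-sided tests and Benjamini-Hochberg adjustment over 21043 genes. On simulated data with 100 genes changed by 1 and 100 by 2 on the log2 scale, 35 and 83 were recovered at 48 h and 37 and 86 at 72 h. False calls numbered 6 at 48 h and 4 at 72 h. A smaller share of genes was changed there than was called here (29.9% at 48 h and 36.2% at 72 h). That share enters the adjustment, so these rates are not those of the fit to the data themselves.

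The members and lists (other HSF, HSP90, HSP70, HSP100, DREB2 and MBF1 genes, co-chaperones and heat tolerance genes, small heat shock proteins, leaf and root markers) were chosen with earlier results of these data known. The text names all 10 members, genes of these lists, and the 5 genes with a symbol most correlated with HSP101 and with HSFA2; which list genes to describe in full was settled after their values were seen. Slide was tested as a block. Same-numbered arrays deviated together between 0 h and 48 h (correlations 0.26, 0.32 and 0.40 over genes), so the numbers pair these times. Alternatives were other scalings, background corrections, filters, probe rules, slide and replicate blocks, variance models and each array left out.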

Additional observations from a re-analysis of the deposited data

How the results depend on the processing

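The counts of the 10 genes called were 8 at 48 h, 6 at 72 h and 0 between the later times. With replicates 1 and 2 only (without slides 3 and 4) the 48 h count was 3; with single arrays left out it was 7 to 8, and 6 to 8 at 72 h. In all other alternatives it was 8 at 48 h. At 72 h the count was 5 without slides 3 and 4 and 8 in the deposited value table. The replicate block changed no call among the 10 genes at 48 h. For 72 h the numbers did not pair the arrays (correlations 0.21, -0.01 and 0.12), and with the replicate block HSP101 and HSFA2 were called too (adjusted p = 0.0103 and 0.0238), a count of 8. Among the other heat and chaperone genes the counts of 19 at 48 h and 17 at 72 h became 6 and 8 without slides 3 and 4, and 9 to 17 and 9 to 20 with single arrays left out; fewer arrays entered these fits.

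Values that changed sign were all uncalled in the alternative. At 48 h HSFA7A was 0.05 after quantile normalization and 0.09 in the deposited table (-0.21 to 0.14 over arrays left out). DREB2A was 0.10 after quantile normalization, 0.00 with normexp and 0.12 in the deposited table (-0.21 to 0.31). HSFA6A was -0.03 with normexp, against 1.26 as called. Between 72 h and 48 h, HSP90.1 was 0.00 with median scaling and in the deposited table, 0.04 with the slide block and 0.13 without slides 3 and 4 (-0.42 to 0.25). The cause was not tested.

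Of all called genes, 47.1% were higher at 48 h and 45.9% at 72 h. The deposited table gave 59.2% and 65.0%, with medians of all genes shifted to 0.151 and 0.229. normexp gave 39.2% and 37.1%. Median scaling gave 38.5% at 48 h. Among the other heat genes at 72 h, 13 of 17 calls were higher, against 9 of 15 with normexp and 19 of 22 in the deposited table. The planned normexp on the mean signal was not run, as that column is not in the files used; normexp on the median signal was chosen after seeing the data. With 3 arrays per time, changes near 1 log2 unit were often missed on simulated data, where a smaller share of genes was changed than was called here. How often such changes were missed in the data themselves was not tested.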
